A study of Mus musculus with 21 samples.

Results

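Rhabdomyosarcomas of NPE mice fell into tumors with much and tumors with little signal of Adipoq, the gene of the fat-cell hormone adiponectin, and these 2 classes are compared here across the genome. Among the 14 NPE tumors, the 8 with an Adipoq log2 signal of at least 7.0 were called fat-rich and the other 6 fat-poor, out of 21 tumors in the series. The members were chosen by this measured Adipoq signal, so the Adipoq values describe the classes and are evidence of nothing else. NPE mice carried Neu1+/-, Ptch1+/- and a heterozygous transgene of human ETV7, and PE mice, which supplied the other 7 tumors, carried the same Ptch1 and ETV7 alleles with both copies of Neu1 intact. Every tumor, in either class, therefore lacked 1 copy of Ptch1, the receptor that holds hedgehog signaling in check. The mice came from crosses of FVB/NJ animals with a mixed line of other strains, and both sexes were used. The promoter that drives the transgene is not given in the sources used here. The tumors arose in limb or trunk and were frozen after dissection, and total RNA of each was run on 1 array, so that tumor cells were measured together with any stroma, vessel, fat or muscle in the piece. Values are log2 RMA signals, that is, background-corrected and quantile-normalized array intensities on a log2 scale. The site of each tumor and the age and sex of each mouse are not in the labels, nor whether any mouse gave more than 1 tumor, so p-values measure the spread between tumors only.

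White fat cells store triglyceride in a single large droplet, take up and make fatty acids under the control of PPARγ, and release hormones such as adiponectin and leptin. Skeletal muscle holds fat cells between its fibres, and these arise from stromal progenitors rather than from the muscle stem cells. Smooth muscle cells line vessels, glands and hair follicles and contract through a separate set of actin, myosin and calponin genes, which are driven by serum response factor and its partner myocardin.

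The Adipoq signal in the fat-rich tumors NPE 1 to 8 was 10.66, 10.96, 7.74, 8.91, 7.94, 7.91, 7.69 and 7.94. In the fat-poor tumors NPE 9 to 14 it was 5.82, 5.97, 4.10, 4.34, 3.31 and 5.14. NPE 1 and NPE 2 stood well above the other fat-rich tumors, and the 2 tumors nearest the threshold were NPE 7 inside it and NPE 10 outside it. The fat-rich class is exactly the tumors that the labels number 1 to 8. The PE tumors spanned 2.97 to 7.65, and of them PE 5 alone lay above the threshold. Other fat-cell markers were higher on average in the fat-rich class: Plin1, Cidec and Lipe, which coat, enlarge and break down the lipid droplet, did not overlap between the classes, while Lep and Retn, the genes of leptin and resistin, and Pparg did. Among the fat-poor tumors, Fabp4, a fatty acid carrier of fat cells, reached 9.53 in NPE 14, above the 9.45 of the fat-rich tumor NPE 3. Plin1 and Cidec were 4.14 and 5.30 in NPE 14, below every fat-rich tumor. Whether the Fabp4 signal in NPE 14 came from fat cells was not tested. In bulk tissue, fewer cells of a type and less RNA per cell cannot be told apart.

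The median log2 signal was 5.32 to 5.41 on the arrays of the NPE tumors. Y-linked genes gave a clear signal in 2 of 8 fat-rich tumors (NPE 1 and NPE 4), in 5 of 6 fat-poor tumors (all but NPE 10) and in 6 of 7 PE tumors (all but PE 5), so that this signal moved with the class. The part of Y-linked signal and of title number in the results was examined only through the settings given beside them. Each title ends in a number that the labels do not explain, and it lay between 1 and 10 for 5 fat-rich and 3 fat-poor tumors, between 18 and 23 for 1 fat-poor tumor and between 28 and 35 for 3 fat-rich and 2 fat-poor tumors. NPE 11 and NPE 12 resembled each other closely (r = 0.992 across probe sets), as did NPE 7 and NPE 8 (r = 0.992), and each pair holds neighboring title numbers.

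Across 22205 probe sets other than Adipoq, 252 were higher in fat-rich tumors (1.13%) and 59 were lower (0.266%) at an adjusted p below 0.05 from limma. Without the adjustment, 1910 were higher and 1469 lower at p below 0.05. By gene, 230 of 19504 were higher (1.18%) and 54 lower (0.277%), of which 106 and 17 changed at least 2-fold. The 2 classes did not overlap for 172 probe sets that were higher in fat-rich tumors (0.775%) and 69 that were lower (0.311%). The counts depended on single fat-poor tumors: without NPE 11 they were 51 and 6, and without NPE 12 they were 55 and 9. They were 54 and 8 when 1 tumor of each resembling pair (NPE 8 and NPE 12) was left out. With the Y-linked signal as a covariate they were 156 and 41, of which 124 and 25 were among the 252 and 59. The rest of the 252 and 59 lost their call there, though all kept their direction in this refit of the same tumors. Of 53 called genes described by name, Ccdc3 and Hoxc12 kept their call in each of 32 alternative settings, 34 lost it when at least 1 single tumor was left out, and 11 lost it in over 16 settings.

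**Figure D1:**
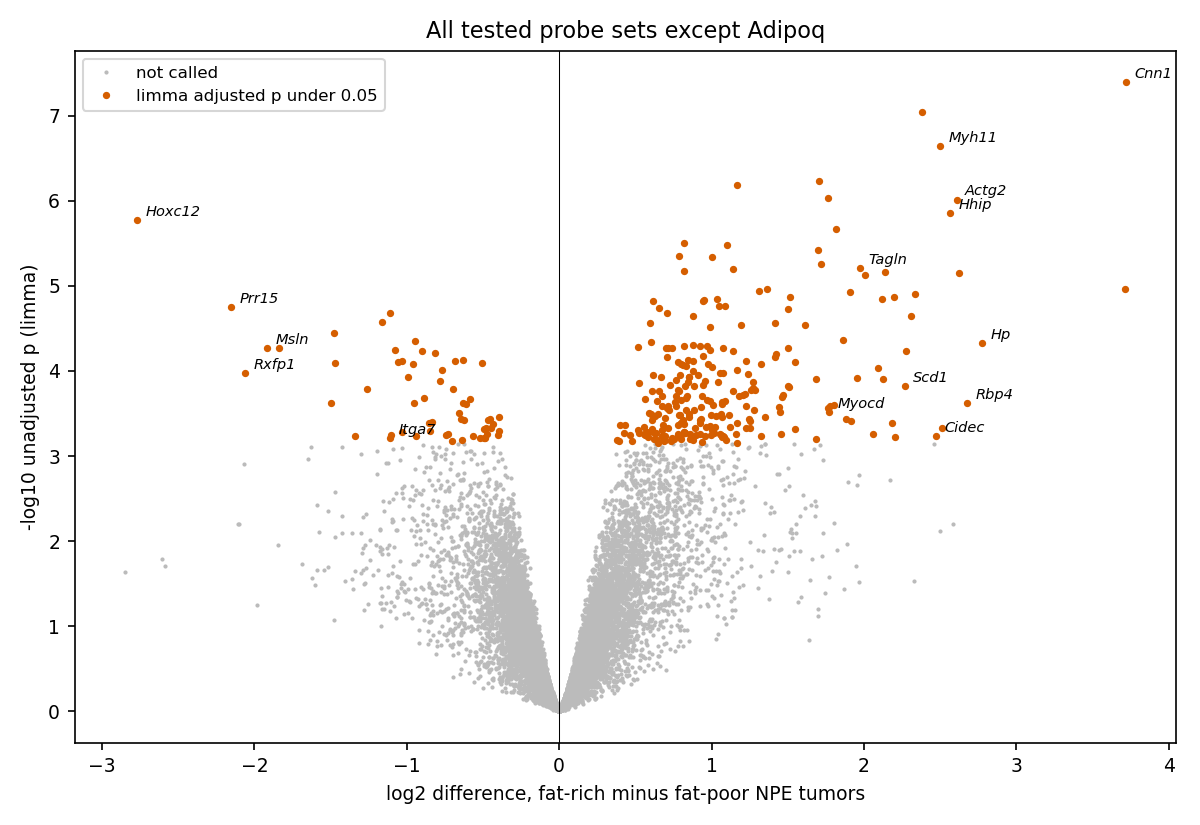
Log2 difference between the 8 fat-rich and 6 fat-poor NPE tumors (x axis) against the -log10 unadjusted p from limma (y axis), 1 point per probe set, Adipoq left out. The 252 higher and 59 lower calls are in orange, with Cnn1 at the top right and Hoxc12 at the top left.

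The named gene with the largest fold and smallest p after Adipoq was left out was Cnn1, a contractile gene of smooth muscle, and other genes of that list rose with it. Cnn1, which encodes calponin of smooth muscle, was 8.73, 8.96, 10.56, 10.37, 9.07, 9.78, 7.78 and 8.42 in NPE 1 to 8 and 6.06, 4.71, 5.08, 5.90, 5.45 and 5.74 in NPE 9 to 14. No fat-poor tumor came within 1 log2 unit of any fat-rich tumor. The log2 difference was 3.72 (SE 0.38), or 13.2-fold, with an adjusted p of 0.0009 from limma. Myh11, the smooth muscle myosin heavy chain, ranged from 7.92 to 10.24 (median 8.93) in fat-rich and from 5.78 to 6.84 (median 6.76) in fat-poor tumors. Its log2 difference was 2.50 (SE 0.29, limma adjusted p = 0.00168). Actg2, the gamma actin of enteric smooth muscle, ranged from 9.02 to 11.30 (median 9.80) against 6.39 to 7.79 (median 7.60), a log2 difference of 2.61 (SE 0.34, limma adjusted p = 0.00307).

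Of 16 smooth muscle contractile genes measured, 7 rose in fat-rich tumors and none fell, where 1.18% of all genes rose and 0.277% fell. The list was not uniform: 13 genes lay above 0 and 3 below 0. By unadjusted p from limma, 15 of the 16 were below 0.05, so that genes with a negative difference were among them. The median log2 difference of the list was 1.07, against -0.01 over all genes. The other genes that rose were Tagln, an actin-binding protein of smooth muscle, by 1.98, Mylk, the kinase of the myosin light chain, by 1.05, Kcnmb1, a subunit of the calcium-activated potassium channel of smooth muscle, by 1.09, and Myocd, the myocardin gene, by 1.77. Myocd was 4.27 to 7.29 in fat-rich and 3.67 to 4.30 in fat-poor tumors, so that the classes overlapped. The calls of Kcnmb1 and Myocd depended on single tumors: that of Kcnmb1 was lost in 22 of 32 settings and held only without NPE 1, 2 or 4 among the 14 fits that left out 1 tumor, and that of Myocd was lost in 19, including without NPE 2, 4, 6 or any of NPE 9 to 14. Acta2, the vascular smooth muscle actin, was 10.97 to 11.89 against 10.09 to 11.14, a difference of 0.72 that did not pass (limma adjusted p = 0.0632). Myl9, a regulatory myosin light chain, and Csrp1, a cytoskeletal LIM protein, were named after their values were seen, and they differed by 1.51 and 1.00 with no overlap of the classes. The mean of the 16 genes was 8.07 to 9.20 in fat-rich tumors and 7.06 to 7.61 in fat-poor tumors, with no overlap. Among PE tumors it was 7.33 to 7.70, and PE 5, the PE tumor above the Adipoq threshold, stood at 7.40, within the range of the fat-poor tumors.

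The Cnn1 and Myh11 differences were as large among tumors with Y-linked signal. Among the 7 NPE tumors with Y-linked signal (2 fat-rich, 5 fat-poor), the log2 difference of Cnn1 was 3.90 (limma adjusted p = 0.00325) and that of Myh11 was 2.80 (limma adjusted p = 0.00632). With the title number range as a block, Cnn1 differed by 3.55 and Myh11 by 2.35. Within title numbers 1 to 10 Cnn1 differed by 3.67 and Myh11 by 2.52, and both passed. Within 28 to 35 Cnn1 differed by 3.37 (limma adjusted p = 0.0509) and Myh11 by 2.09 (limma adjusted p = 0.11), so that both calls were lost there. Pdgfrb, a marker of the pericytes that wrap small vessels, differed by 0.21 (limma adjusted p = 0.71) and by -0.20 among tumors with Y-linked signal, and of 18 genes of progenitor and mural cells only Myh11, which the smooth muscle list also holds, passed the test. Endothelial genes, the markers of vessels, had a median difference of 0.51, and their part in the smooth muscle result was not tested.

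**Figure D2:**
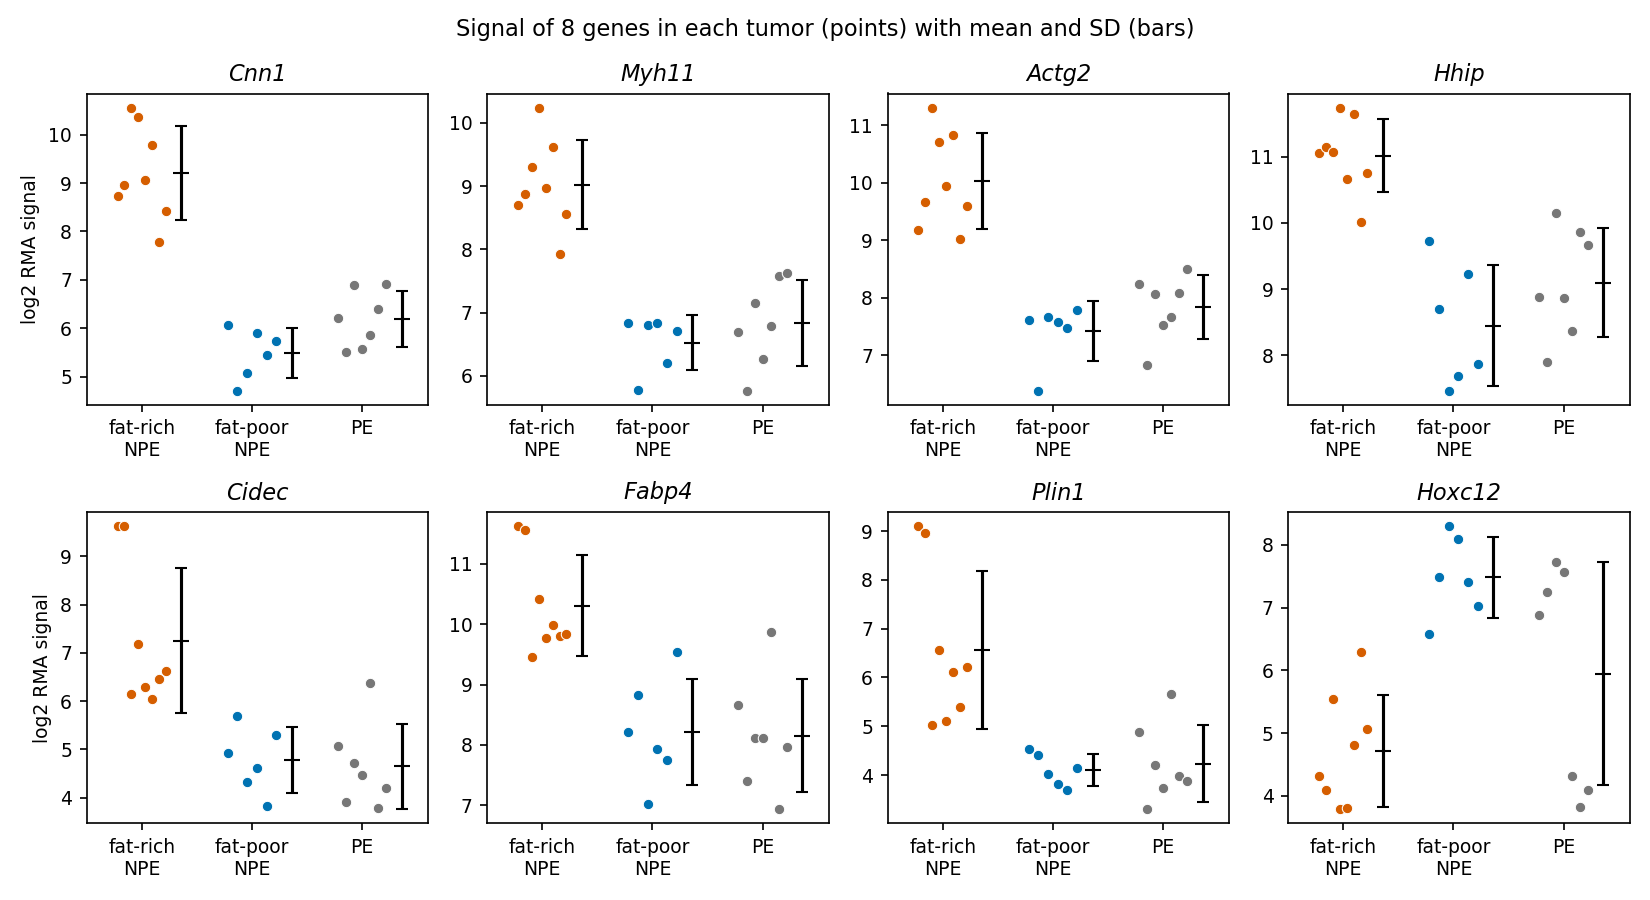
Log2 RMA signal (y axis) of 8 genes in each of the 8 fat-rich NPE, 6 fat-poor NPE and 7 PE tumors, with black bars at the mean and SD of the group. Fat-rich and fat-poor tumors did not overlap for Cnn1, Myh11, Actg2, Hhip, Cidec, Plin1 and Hoxc12, the fat-cell genes Cidec, Fabp4 and Plin1 were highest in NPE 1 and NPE 2, and Hoxc12 was at 4.31 or below in PE 5 to 7.

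The 250 bases before the annotated start were searched for the CArG box, the motif of serum response factor: a pair of C, a run of A or T and a pair of G that reads alike on both strands. In RefSeq sequence of the GRCm38.p6 build, 439 of 27025 genes hold one (1.62%), as do 3 of 175 genes called higher with a promoter in the table (1.71%) and 1 of 41 called lower (2.44%). None of the 12 smooth muscle list genes in the table does. The box of Myl9 is shown beside those of Cbr2, a carbonyl reductase that was also higher in fat-rich tumors, and of Cited1, which was lower, because these are the named calls that hold one apart from a predicted gene. The 100 bases shown lie upstream of the start on the strand of the gene, with the box in capitals.
Myl9 (chr2:156775258-156775357, plus strand): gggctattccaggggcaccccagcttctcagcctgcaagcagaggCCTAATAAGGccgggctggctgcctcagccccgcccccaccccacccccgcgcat
Cbr2 (chr11:120732075-120732174, minus strand): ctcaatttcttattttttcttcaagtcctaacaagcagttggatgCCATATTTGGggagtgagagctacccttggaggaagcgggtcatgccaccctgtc
Cited1 (chrX:102252182-102252281, minus strand): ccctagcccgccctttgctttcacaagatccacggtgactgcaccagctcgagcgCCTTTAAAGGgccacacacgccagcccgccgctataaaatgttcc
The box starts 161, 108 and 45 bases before the start in Myl9, Cbr2 and Cited1. The repeat bound by PPARγ with its partner RXR (AGGNCANAGGNCA on either strand) was found for 108 genes in all (0.4%), for 1 gene called higher (Tnfsf10, a death ligand) and for none of 15 fat-cell list genes. Cbr2 and Tnfsf10 are named here for the match. A match describes letters only.

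The mean of the fat-cell identity genes was 6.40 to 8.79 in fat-rich and 5.46 to 5.98 in fat-poor tumors, and highest in NPE 1 and NPE 2. These genes report on the same cells as Adipoq, so their difference is not independent of the split. Of 19 measured genes, 5 rose and none fell, where 1.18% of all genes rose and 0.277% fell. The median log2 difference was 1.73, against -0.01 over all genes. Cidec, which enlarges lipid droplets, was 9.63, 9.62, 6.15, 7.18, 6.29, 6.04, 6.46 and 6.63 in the fat-rich tumors and 3.82 to 5.70 in the fat-poor tumors. Its log2 difference was 2.47 (SE 0.58, limma adjusted p = 0.0461). NPE 1 and NPE 2 were more than 2 log2 units above the other fat-rich tumors, which lay between 6.04 and 7.18. Rbp4, the retinol carrier of blood that fat cells also secrete, rose by 2.68, Trarg1, which acts in insulin-driven glucose transporter traffic, by 2.14, Fabp4 by 2.09 and Agt, the angiotensin precursor, by 1.86. Rbp4 was highest in NPE 3 (10.59) and Agt in NPE 4 (10.46). Plin1 differed by 2.46 and narrowly missed the threshold (limma adjusted p = 0.05). The median of the list was 0.93 without NPE 1 and NPE 2, where Cidec and Fabp4 differed by 1.68 and 1.66 and passed. In other settings these calls were lost. Cidec lost its call in 20 of 32, holding it only without NPE 1, 3, 6 or 7 among the fits that left out 1 tumor, and with the Y-linked covariate its limma adjusted p was 0.0761. Rbp4 lost its call in 13 settings, including without NPE 2, NPE 4 or any of NPE 9 to 14, and Fabp4 in 7, including without NPE 11, 12 or 13 and without NPE 1, 2 and 4 together (limma adjusted p = 0.0576). Agt lost its call without NPE 11.

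Lipid enzymes gave fewer calls. Of 22 genes of fatty acid and triglyceride synthesis 20 lay above 0, with a median of 0.48 against -0.01 over all genes. Of the 22, 1 was called, Scd1, the desaturase that makes oleate, which rose by 2.27 (limma adjusted p = 0.0267). Of 23 lipid droplet and lipolysis genes, Cidec and Mgll, which splits monoglycerides, rose (Mgll by 1.14). Of 14 genes of fatty acid uptake, Fabp4 and Cavin2, a coat protein of caveolae, rose. None of 20 fatty acid oxidation genes or 26 respiratory chain genes passed in either direction. Cd36, a fatty acid transporter also found on vessels and muscle, was 7.10 to 9.99 in fat-rich and 8.14 to 8.87 in fat-poor tumors (difference 0.25, limma adjusted p = 0.803). Of 20 adipogenic transcription factors Nr1h3, the oxysterol receptor LXRα, rose by 0.82, while Pparg differed by 1.25 (limma adjusted p = 0.163). Prkar2b and Adcy5, which act in cyclic AMP signaling, and Trarg1 rose among 16 genes of insulin and adrenergic signaling. Of 20 genes of branched-chain amino acid and mitochondrial metabolism in fat, Idh1 rose by 0.80. Single tumors decided several of these calls. That of Scd1 was lost without NPE 4 or any of NPE 11 to 14, that of Mgll without NPE 2, 4, 10, 13 or 14, and that of Cavin2 without NPE 2, 11, 13 or 14. Nr1h3 lost it without NPE 2, 11, 12 or 13, Prkar2b without NPE 4 or any of NPE 10 to 13, Adcy5 without NPE 2, 10, 11, 12 or 14, and Idh1 without NPE 11 or 12.

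None of 19 genes of brown and beige fat rose. Ucp1, the uncoupling protein of brown fat, lay between 2.54 and 5.79 in fat-rich and between 2.61 and 3.61 in fat-poor tumors, at the background level in 3 and 4 of them, and differed by 0.84 (limma adjusted p = 0.461). It was 5.69, 5.79 and 4.31 in NPE 4, NPE 7 and NPE 8, the fat-rich tumors with title numbers between 28 and 35. In the other fat-rich tumors Ucp1 was at 2.98 or below, and in NPE 11 and NPE 12, fat-poor tumors of that number range, at 2.61 and 3.02. Over 32 settings its difference ran from 0.11 to 2.45 and passed in 1. The part of title number in the Ucp1 signal was not tested. Prdm16 and Cidea, further genes of brown fat, differed by 0.28 and -0.01. Zic1, which marks dorsal somite derivatives and brown fat precursors, fell by 1.47 (limma adjusted p = 0.0201). Among adipokines and their receptors, Rarres2, the chemerin gene, rose by 0.97 and Rbp4 rose, while the adiponectin receptors Adipor1 and Adipor2 differed by 0.03 and 0.32 and neither passed. Cdh13, the cadherin that binds adiponectin on vessels and muscle, fell by 0.95 (limma adjusted p = 0.0328). The calls of Zic1 and Rarres2 were lost without NPE 11 or 12, and that of Cdh13 without NPE 2, 4, 5 or any of NPE 9 to 13.

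Outside the rule, the same genes could be set against Adipoq in PE tumors, which the split did not use. There 3 probe sets rose with Adipoq (0.0135%) and none fell at a limma adjusted p below 0.05, against 630 and 550 at an unadjusted p below 0.05. The 3 were Fabp4, with a slope of 0.56 log2 units per log2 unit of Adipoq, Bst2, an interferon-induced membrane protein, and a probe set with no gene name. The slope was above 0 for 17 of 19 fat-cell genes but for 3 of 16 smooth muscle genes, and for 47.7% of all genes. Cidec had a slope of 0.52 (limma adjusted p = 0.0692) and Cnn1 one of -0.07 (limma adjusted p = 0.958). Of the 230 genes called higher in fat-rich NPE tumors, 140 (60.9%) had a PE slope above 0, and of the 54 called lower, 11 (20.4%) had one below 0. No probe set rose when PE 4, PE 5 or PE 6 was left out. Just 1 rose without PE 2 and without PE 3, whereas 10 rose and 1 fell without PE 1. No probe set had a slope that differed between NPE and PE tumors at a limma adjusted p below 0.05 (0%), against 676 higher and 551 lower in NPE at an unadjusted p below 0.05.

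**Figure D3:**
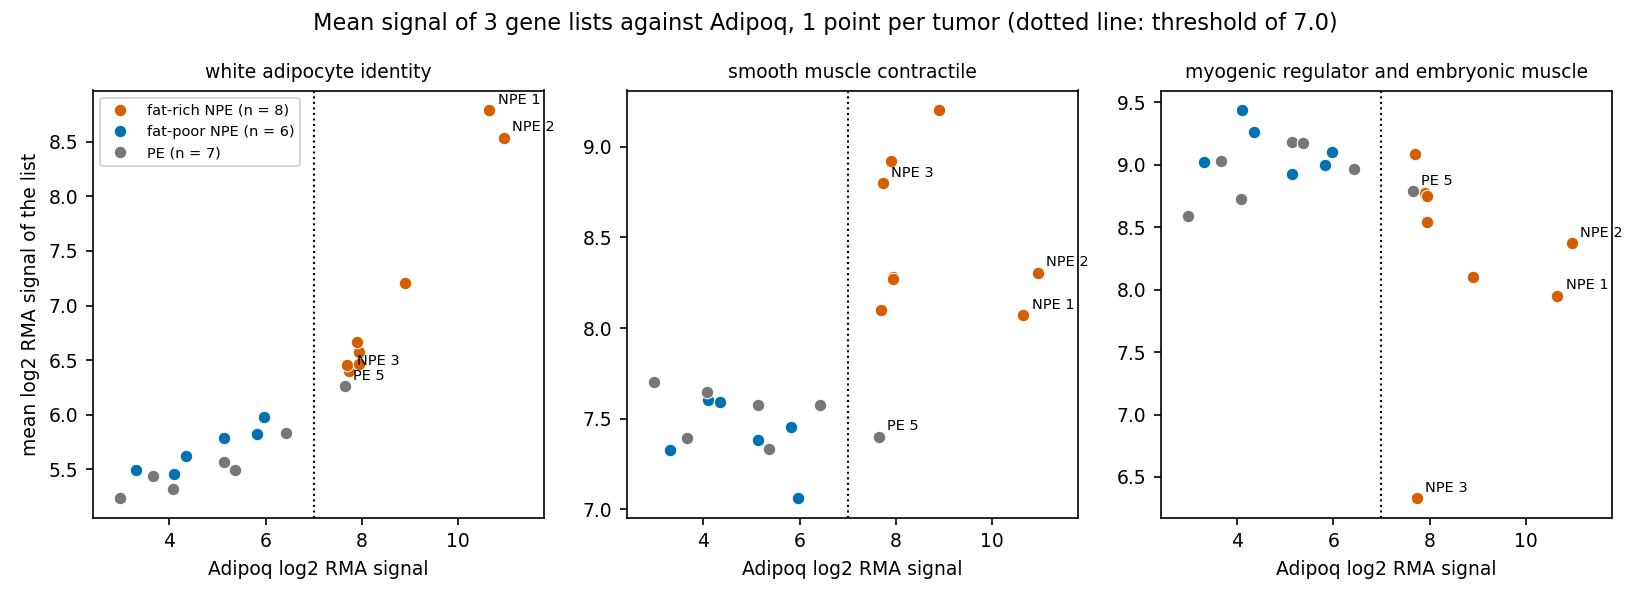
Mean log2 RMA signal of 3 gene lists (y axis) against the Adipoq log2 signal (x axis), 1 point per tumor, with a dotted line at the threshold of 7.0. The fat-cell mean was highest in NPE 1 and NPE 2, smooth muscle genes were at 8.07 or above in every fat-rich tumor and at 7.70 or below in all others, PE 5 included, and NPE 3 was far below all other tumors in the myogenic list.

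Within the 8 fat-rich tumors, 183 probe sets rose with Adipoq (0.824%) and 43 fell (0.194%). The slopes used the Adipoq values that set the class, and fat-cell genes report on the same cells as Adipoq. The slopes of those genes therefore describe the tumors and are not independent support for the class. All 19 fat-cell genes had a slope above 0, 11 of them past the test, among them Plin1 at 1.16, Lep at 1.19 and Pparg at 0.85. Of the smooth muscle genes 5 of 16 had a slope above 0 and none passed. These slopes rest on NPE 1 and NPE 2: without them 2 probe sets rose and none fell, 15 of 19 fat-cell genes and 15 of 16 smooth muscle genes had a slope above 0, and none passed, over an Adipoq range of only 7.69 to 8.91. In the full set of 8, 0 of 29 cell cycle genes and 0 of 21 collagen and matrix genes had a slope above 0, whereas 26 of 26 respiratory chain genes and 32 of 32 muscle fibre genes did, against 50.8% of all genes. Without NPE 1 and NPE 2 these counts were 4, 8, 19 and 31, against 48.7% of all genes.

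Hhip, which binds hedgehog ligands and is itself switched on by the pathway, was 11.06, 11.15, 11.07, 11.74, 10.67, 11.64, 10.02 and 10.76 in fat-rich and 9.72, 8.70, 7.47, 7.68, 9.24 and 7.88 in fat-poor tumors. The classes did not overlap, and the log2 difference was 2.56 (SE 0.34, 5.92-fold, limma adjusted p = 0.00386). It was the only gene called among 17 of the hedgehog pathway, whose median difference was 0.09. Gli1, the transcription factor that serves as the usual readout of the pathway, was 6.72 to 8.03 against 6.28 to 6.86 (difference 0.81, limma adjusted p = 0.0685), and Ptch1 differed by 0.78 (limma adjusted p = 0.149). In PE tumors Hhip reached 10.15, which is within the fat-rich range.

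Myogenic genes were mostly lower in fat-rich tumors, short of the threshold. Of 21 myogenic regulators and embryonic muscle genes 20 were lower in fat-rich tumors, with a median of -0.91 against -0.01 over all genes. Of the 21, 1 was called, Itga7, the laminin receptor of muscle, which fell by 1.11 (limma adjusted p = 0.0471). That call was lost in 21 of 32 settings and held only without NPE 3, 7 or 8 among the fits that left out 1 tumor. Myod1, a master regulator of muscle fate, was 6.49 to 8.69 (median 7.98) in fat-rich and 8.39 to 8.96 (median 8.59) in fat-poor tumors. Its difference was -0.86 (limma adjusted p = 0.144), and those of Myog and Myf5, its relatives, were -1.04 and -2.10. NPE 3 was far below the other tumors, with a list mean of 6.33, and the median without it was -0.66. Desmin, the intermediate filament gene used to diagnose these tumors, was 9.27 to 10.73 against 10.42 to 10.86 (difference -0.48, limma adjusted p = 0.238). Among 32 genes of mature fibres 26 were lower, with a median of -0.40 and no call, and the median was -0.10 without NPE 3 and 0.27 among the tumors with Y-linked signal.

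**Figure D4:**
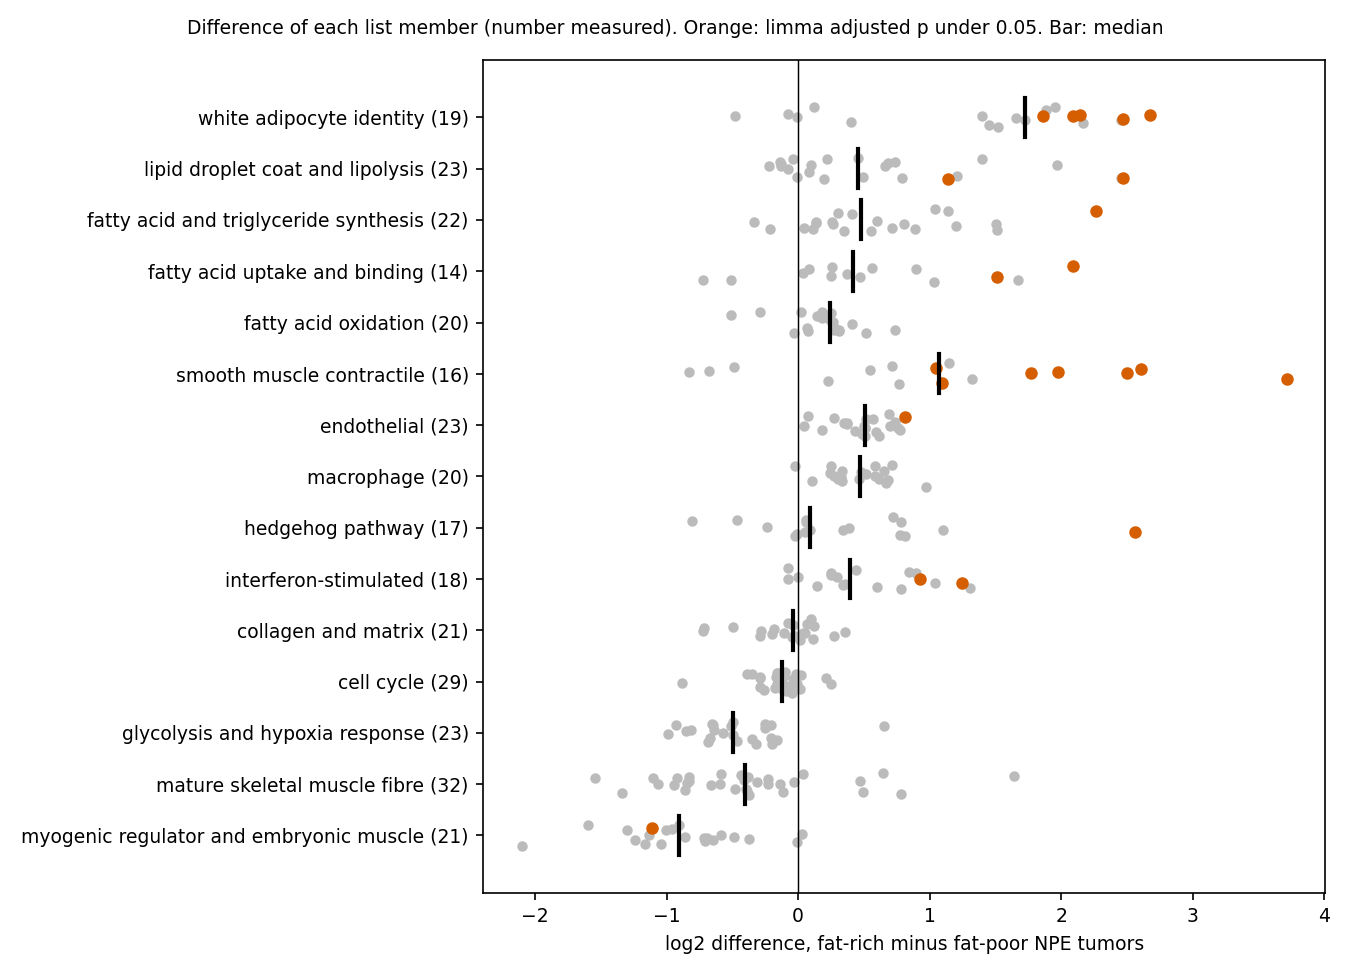
Log2 difference between fat-rich and fat-poor NPE tumors (x axis) for each measured member of 15 lists, with a black bar at the list median. Orange members passed a limma adjusted p of 0.05, and medians ran from 1.73 for fat-cell identity and 1.07 for smooth muscle to -0.91 for myogenic genes.

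Among the other genes with the largest folds, Ccdc3, which fat and vessel cells secrete, was 6.90 to 8.39 (median 7.65) in fat-rich and 4.61 to 6.09 (median 5.16) in fat-poor tumors, a log2 difference of 2.38 (SE 0.26, limma adjusted p = 0.00101). Hp, the hemoglobin scavenger haptoglobin, rose by 2.77, and Pla2g2d, a secreted phospholipase of dendritic cells, by 2.63. Cdo1, which oxidizes cysteine, rose by 2.51, Cd209g, a lectin of the DC-SIGN family, by 2.34 and Nqo1, a quinone reductase, by 2.31. Vit, a matrix protein gene, rose by 2.28, Mab21l2, a developmental gene, by 2.21 and Mgst1, a glutathione transferase of membranes, by 1.91. The call of Mab21l2 was lost in 24 of 32 settings, with differences down to 0.38, and held only without NPE 1, 4 or 9 among the fits that left out 1 tumor. That of Cdo1 was lost in 17, including without NPE 2, NPE 4 or any of NPE 8 to 14, and Hp and Vit lost theirs without NPE 11 or 12. Classes did not overlap for Ccdc3, Pla2g2d, Cd209g, Nqo1 and Mgst1. Among PE tumors, Hp (8.47), Cdo1 (7.30), Cd209g (5.02), Vit (5.41) and Mgst1 (9.01) were highest in PE 5, the tumor above the Adipoq threshold. Ccdc3, Pla2g2d, Nqo1 and Mab21l2 were not. Whether the differences of these genes are separate from fat content was not tested. A probe set with no gene name differed by 3.71 (limma adjusted p = 0.00962), and 22 of the higher and 5 of the lower calls have no name.

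Hoxc12 fell most of all named genes. This posterior Hox gene, active in the embryo at the tail end, in distal hind limbs and in hair follicles, was 4.31, 4.09, 5.54, 3.79, 3.81, 4.80, 6.29 and 5.06 in fat-rich and 6.57, 7.49, 8.30, 8.09, 7.41 and 7.03 in fat-poor tumors. The log2 difference was -2.77 (SE 0.38, limma adjusted p = 0.0042). PE tumors split, with PE 1 to 4 at 6.88 to 7.73 and PE 5 to 7 at 3.81 to 4.31. Its neighbor Hoxc13 fell by 1.03 (limma adjusted p = 0.0201), a call that was lost without NPE 11 or 12. None of the other 31 Hox genes measured passed, and the median of all 33, a list drawn up after the values were seen, was 0.14. Whether the classes differ in tumor site was not tested, since the labels do not give it per tumor.

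Further genes fell. Prr15 fell by 2.15, Rxfp1, the relaxin receptor, by 2.06, Msln, the mesothelial surface protein mesothelin, by 1.92 and Sytl5, a vesicle traffic protein, by 1.84. Sema3e, a guidance cue, fell by 1.50, Cited1, a transcriptional coactivator, by 1.48, Amhr2, the receptor of anti-Müllerian hormone, by 1.34, and Rhoh, a small GTPase of blood cells, by 1.16. Ttc9, Pkhd1, Scn3a, a sodium channel subunit, and Rin1, an effector of Ras, fell by 1.06 to 1.11. Amhr2 lost its call in 20 of 32 settings and held it only without NPE 1, 7 or 10 among the fits that left out 1 tumor, and Pkhd1 in 19, holding it only without NPE 1, 3, 7 or 8. Sema3e lost it without NPE 2, 4, 9, 11, 12 or 13, Rxfp1 and Rin1 without NPE 11 or 12, and Sytl5, Cited1 and Scn3a without NPE 11. Classes did not overlap for Sytl5, Cited1, Rhoh, Ttc9 and Rin1. Msln was the only call among 12 genes of lymph vessels and mesothelium.

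All 23 endothelial genes lay above 0 in fat-rich tumors with a median of 0.51, against -0.01 over all genes. Erg, an endothelial transcription factor, was the only one called, rising by 0.82 (limma adjusted p = 0.0432). Of 20 macrophage genes 19 lay above 0 (median 0.47) and none was called. Cd4 rose by 0.96 among 20 lymphocyte genes, and Gbp2 and Psmb8, both induced by interferon, rose by 1.25 and 0.92 among 18. The calls of Erg, Gbp2 and Psmb8 were lost in 19, 18 and 17 of 32 settings. Erg lost it without NPE 2, 3, 4 or any of NPE 8 to 13, Gbp2 without any of NPE 2 to 5 or 11 to 14, and Psmb8 without any of NPE 2 to 6 or without NPE 9, 11, 12 or 14. Cd4 lost it without NPE 11, 12 or 13. The summed endothelial signal overlapped between the classes, with list means of 6.63 to 7.47 against 5.96 to 6.81. Of 23 genes of glycolysis and the hypoxia response 22 were below 0 (median -0.50), of 29 cell cycle genes 25 (median -0.12) and of 21 collagen and matrix genes 12 (median -0.04), and none was called. Leaving out 1 tumor put the cell cycle median between -0.30 and 0.02 and the collagen and matrix median between -0.08 and 0.10. The cell cycle list means overlapped, at 4.82 to 7.04 in fat-rich and 5.13 to 6.34 in fat-poor tumors. The medians were 0.01 for 18 genes of invasion and epithelial to mesenchymal change and 0.08 for 20 lysosomal genes, with no call. The 18 keratinocyte and sebaceous genes had list means of 4.42 to 4.79 and 4.46 to 4.58, Mgst1 being the only call. The 9 remaining lists held no call among 149 genes, and their medians lay between -0.45 and 0.49.

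Neu1, the lysosomal sialidase gene of which NPE mice carry 1 intact copy, was 6.04 to 6.68 (median 6.34) in fat-rich and 6.21 to 6.76 (median 6.35) in fat-poor tumors, a difference of -0.06 (limma adjusted p = 0.878). By an exact permutation test (2-sided, 3003 possible splits) p was 0.6, and the 95% confidence interval of the difference was -0.29 to 0.18. PE tumors ranged from 6.42 to 6.92.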

How the data were processed

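Total RNA of 21 mouse tumors was hybridized to Affymetrix arrays. The authors deposited log2 RMA signals, and the labels name Affymetrix Expression Console 1.1; the genome build is not given in the sources used here. Of 28846 probe sets, 94 controls and 6546 with an MG- name were left out, and 22206 were tested, 19572 with 1 gene symbol and 2634 with none. They covered 19505 genes, and for 55 genes with several probe sets the one with the highest mean was used. Groups came from the labels and the classes from Adipoq at a log2 signal of 7.0. Differences were tested with limma 3.58.1 in R 4.3.3 (lmFit and eBayes, 2-sided, Benjamini-Hochberg over all probe sets, threshold 0.05), after tests on simulated data. The same was done for slopes on Adipoq in the 7 PE tumors and for their difference from NPE tumors. Named genes were the 15 largest fold changes past the threshold in each direction, up to 4 members of each list by smallest p, and genes named by the study; Myl9, Csrp1 and the Hox list were added after values were seen. Members and lists were chosen with earlier results of these data known. Alternatives changed weights, filters, normalization, tumors, covariates, the predictor and the test. Those on tumors with Y-linked signal, without NPE 1, 2 and 4, and on slopes within fat-rich tumors were chosen after seeing the data. The number of arrays limits the precision. Between 83.1% and 90.2% of probe sets were above background in NPE tumors. Python 3.11.15 and matplotlib 3.10.9 drew the figures.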

Additional observations from a re-analysis of the deposited data

Results flagged for a closer look

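Of 244 groups of values examined, 11 held 1 tumor far from the others of its group, where chance marks about 1 in 20. The share marked was thus no larger than chance gives, and the tumors below are listed as a description only. NPE 3 was lowest among fat-rich tumors in the myogenic list mean (6.33, the next tumor 7.95) and in Itga7 (6.31, next 7.58), and highest in the endothelial list mean (7.47, next 7.02). NPE 10 was lowest among fat-poor tumors in Actg2 (6.39, next 7.48) and Myl9 (7.28, next 8.0). NPE 1 was highest among fat-rich tumors in the respiratory chain list mean (9.26, next 8.75), and NPE 6 lowest in Nr1h3 (5.65, next 6.39). NPE 13 was highest among fat-poor tumors in Sytl5 (7.67, next 7.02) and in Adcy5 (4.25, next 3.66). Among PE tumors, PE 5 was highest in Vit (5.41, next 4.36) and PE 2 lowest in the macrophage list mean (6.16, next 6.49).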

How the results depend on the processing

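No paired analysis was possible because the labels give neither the mouse nor the site of each tumor. The 252 higher and 59 lower probe sets became 727 and 214 with array weights, and 143 and 30 with the MG- probe sets tested too. With continuous Adipoq the counts were 553 and 209, of which 154 and 35 were among the 252 and 59. That fit used the Adipoq signal in place of the class, with slopes scaled to the gap between class means, so nothing was adjusted for Adipoq. The counts became 511 and 142 with all 21 tumors in the fit, and 22 and 2 by an ordinary equal-variance t-test in place of limma. They were 54 and 8 without NPE 8 and NPE 12, 19 and 3 within title numbers 1 to 10, and 634 and 359 within 28 to 35. Of the 634 and 359, only 100 and 17 were among the 252 and 59. The higher count was 153 without the 2 tumors nearest the threshold, 131 with title number range as a block, and 156 with the Y-linked covariate. Chosen after seeing the data, the tumors with Y-linked signal gave 374 and 206, and leaving out NPE 1, 2 and 4 gave 149 and 20. Only 91 and 24 of the former, and 101 and 12 of the latter, were among the 252 and 59. Leaving out 1 tumor gave 51 to 374 higher and 6 to 129 lower: 115 and 26 without NPE 2, 126 and 25 without NPE 4, 105 and 36 without NPE 10, 51 and 6 without NPE 11, 55 and 9 without NPE 12, and 110 and 29 without NPE 13. It was 122 higher without NPE 14, 129 lower without NPE 7 and 34 lower without NPE 9. Array centring on the median gave 178 and 64, and quantile normalization 228 and 82. The PE slope counts ranged from 0 to 10 higher and 0 to 1 lower without 1 tumor, and the slope difference from NPE tumors gave 0 throughout. All 252 and 59 calls kept their direction in every alternative, except that 1 of the 252 was not tested under the background filter. The alternatives reused the tumors in which the calls were made, so a kept direction is not independent support. Within title numbers 1 to 10, only 14 and 3 of these calls were kept. The median of the fat-cell list was 0.93 without NPE 1 and 2, 0.78 without NPE 1, 2 and 4, and 2.90 among tumors with Y-linked signal, and that of the smooth muscle list was 0.70 with continuous Adipoq. Neu1 turned to 0.0178 without NPE 13 (range -0.10 to 0.0178) and to 0.0074 without NPE 1, 2 and 4. Cd36 turned to -0.12 and -0.14, and Adipor2 to -0.0197 and -0.0859, without NPE 1 and 2 and without NPE 1, 2 and 4. Adipor1 turned to -0.0064 with centred arrays, -0.0168 without NPE 1 (range -0.0168 to 0.0638), -0.0506 without NPE 1 and 2 and -0.0228 without NPE 1, 2 and 4. Cidea turned to 0.0338 with array weights, 0.0104 without NPE 8 and 12, 0.0148 within title numbers 28 to 35, 0.20 with the Y-linked covariate, 0.24 with continuous Adipoq and 0.47 among tumors with Y-linked signal (-0.13 to 0.11 without 1 tumor). Pdgfrb turned to -0.29 within title numbers 1 to 10 and -0.20 among tumors with Y-linked signal. Among the latter, the medians of the invasion and lysosome lists turned to -0.22 and -0.044, by over 1 pooled SD of the list mean. Smaller shifts also took list medians across 0. Ranges were -0.52 to 0.24 for cell cycle, -0.50 to 0.33 for collagen, -0.17 to 0.41 for respiratory chain and -0.84 to 0.27 for mature fibres. They were -0.02 to 0.63 for fatty acid oxidation, -0.06 to 0.54 for adipogenic factors and -0.10 to 0.46 for brown and beige fat. The branched-chain, keratinocyte and lymph vessel lists crossed 0 too. The cause of these shifts was not tested. Of the named genes, 53 were called, and over 32 alternatives each their call was kept 1251 times and lost 445 times, never with a change of sign. The other 18 genes, Neu1 among them, had no call to keep, and over 576 values they passed 31 times and changed sign 22 times. With 8 and 6 tumors, the precision of every difference is limited by the number of arrays.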
